A study of Sus scrofa with 11 samples.

Results

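Schwann cells are the glia of peripheral nerve, and the nerves that reach the outer wall of an artery carry them. Non-myelinating Schwann cells wrap bundles of thin axons, such as those of sympathetic nerves, and keep adhesion molecules and GFAP, whereas myelinating Schwann cells wrap single thick axons in a sheath built from proteins such as MBP and PMP22. The cell bodies of these axons lie in ganglia outside the vessel, so most neuronal mRNA is not made in the wall itself.

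The genes described here are a list of 33 Schwann cell, glia and nerve genes, chosen by gene name in a count table of 35670 genes, with the row of highest mean count to be taken if a name repeats. The table names 28 of them directly. ANK3 was found by its gene identifier, GPM6B and MAL by their position against RefSeq genes of the same build, and S100B and NEFM were not matched. Of these 31 genes, 26 passed the filter on low counts and were tested, and 5 (CADM2, TH, DBH, SNAP25 and NRXN3) did not. The 31 genes were placed by known role as Schwann lineage (5), myelinating (8), non-myelinating (6) and axonal or neuronal (11), and CRYM, whose role in nerve is not clear, was left unplaced (1).

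The libraries are poly-A selected RNA sequencing of whole carotid artery from pigs (Sus scrofa). All animals ate a Western-type diet rich in fat and calories for 12 weeks, and each week they were anaesthetised and received an intravenous infusion at 400 nM. One group received single-walled carbon nanotubes alone (SWNT), and the other (SWNT-SHP1i) received nanotubes that carried a SHP-1 phosphatase inhibitor, so the controls carry the nanotubes, the diet and the anaesthesia too. For strain, sex, age and the stretch of artery sampled, the sources used here give nothing, and no untreated or chow-fed animals were analysed here. The series lists 11 animals, and counts of 10, 5 per group, were analysed. SWNT-SHP1i replicate 4, labelled as having died before harvest, was not analysed here.

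Total counts were 27593564 to 47718854 reads per library. Among them, 2 SWNT-SHP1i libraries differed from the rest. Replicate 3 had 8.61% of its counts on mitochondrially encoded genes, against 1.16% to 2.97% in the other 9. Replicate 6 had the lowest rank correlation with the median of the other libraries across the genes tested (0.871 against 0.948 to 0.989). Animal numbers begin with B9 except in replicate 3 of both groups, and nothing says that this marks a batch. Fold changes without SWNT-SHP1i replicates 3 and 6, or over the 8 B9 animals, are given where they move by over 1.5 times or change sign, beside the gene or in the closing section. The labelled tissue was plain in its markers: ACTA2, the smooth muscle actin, stood at 6196 to 14340 CPM, the count scaled to a common library size after TMM.

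No gene of the list passed the test at an adjusted p under 0.05 (edgeR quasi-likelihood test, Benjamini-Hochberg over 15930 genes), and none of the 15930 did (0.0%); DESeq2 called 2 genes of 24493, neither of them listed. What follows therefore gives levels, fold changes and intervals, not calls. At an unadjusted p under 0.05, 6 of the 26 tested genes were lower in SWNT-SHP1i, against 1.15% of all genes tested, and 0 were higher, against 3.49% of all genes. These 6 were GFAP, CADM4, UCHL1, SOX10, ERBB3 and L1CAM. Log2 fold changes (SWNT-SHP1i over SWNT) were negative in 21 of the 26, against 49.2% of all genes, and the median was -0.28 over the list and 0.006 over all genes. Without the 3 genes that the table does not name, 18 of 23 were negative, among them the same 6. The list was chosen with earlier results of these libraries known, so these counts are a description and not an independent test.

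The role groups differed in their medians, although the difference between groups was not tested. All 5 tested Schwann lineage genes had negative fold changes (median -0.97), as had all 5 tested non-myelinating genes (median -0.53). Of the 8 myelinating genes 7 were negative, but their median was -0.18. Of the 7 tested axonal genes 4 were negative, with a median of -0.14. Without SWNT-SHP1i replicates 3 and 6 the medians were -0.57, -0.30, -0.25 and 0.04 in the same order, and 17 of 26 genes were negative, against 48.8% of all genes. Over the B9 animals 20 of 26 were negative, against 48.5% of all genes. RNA here comes from whole artery. Fewer Schwann cells, less RNA per Schwann cell and a larger share of RNA from other cells therefore cannot be told apart.

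**Figure D1:**
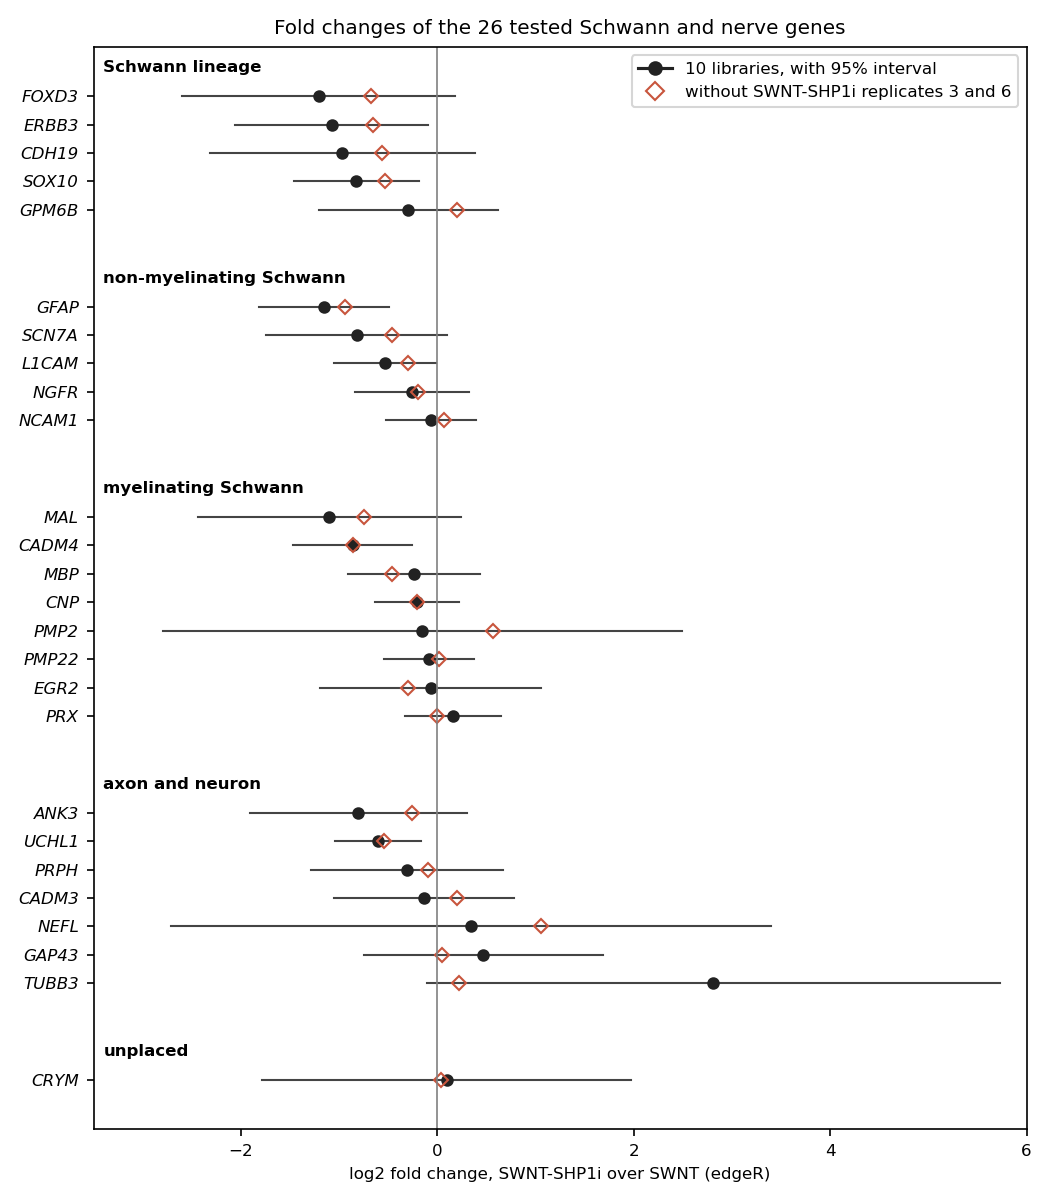
Log2 fold change of each of the 26 tested genes (x axis, SWNT-SHP1i over SWNT, edgeR), grouped by role. Filled circles with bars give the fit on 10 libraries with its 95% interval, and open diamonds the fit without SWNT-SHP1i replicates 3 and 6; FOXD3, GFAP, MAL and ERBB3 lie furthest to the left, all below -1, and TUBB3, at 2.81, furthest to the right.

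Levels can be compared between genes only per exon length, and on that scale (CPM per kb of exon, SWNT mean ± SD, n = 5) the list spanned several orders of magnitude. PMP22, a myelin membrane protein that fibroblasts and other cells also make, was the highest at 98.7 ± 12.3. CADM3, an adhesion molecule of axons, followed at 30.9 ± 10.7, then UCHL1, a ubiquitin hydrolase abundant in neurons, at 22.4 ± 2.93, and CNP, an enzyme of myelinating glia, at 18.3 ± 3.38. UCHL1 and CNP lay within overlapping ranges of 1 SD. The glial genes GPM6B (11.9 ± 2.73), SOX10 (12.9 ± 2.62) and L1CAM (11.13 ± 2.66) formed a next tier whose members lay within 1 SD of each other, and GFAP (9.02 ± 1.75), NGFR (8.43 ± 1.63), NCAM1 (8.03 ± 0.576) and ERBB3 (7.85 ± 2.48) lay just under it. MBP, which encodes a main structural protein of compact myelin, stood lower at 2.13 ± 0.86, as did PRX, the periaxin that links the myelinating cell to its surroundings, at 2.40 ± 0.293. In the SWNT means, the transcription factor SOX10 was thus above MBP and PRX per kb. That order rests on summed exon lengths of 2910 bases for SOX10, 12141 for MBP and 5025 for PRX. In plain CPM the SWNT means were 37.5, 25.8 and 12.0. How much of the summed length the transcripts in these libraries use was not tested.

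**Figure D2:**
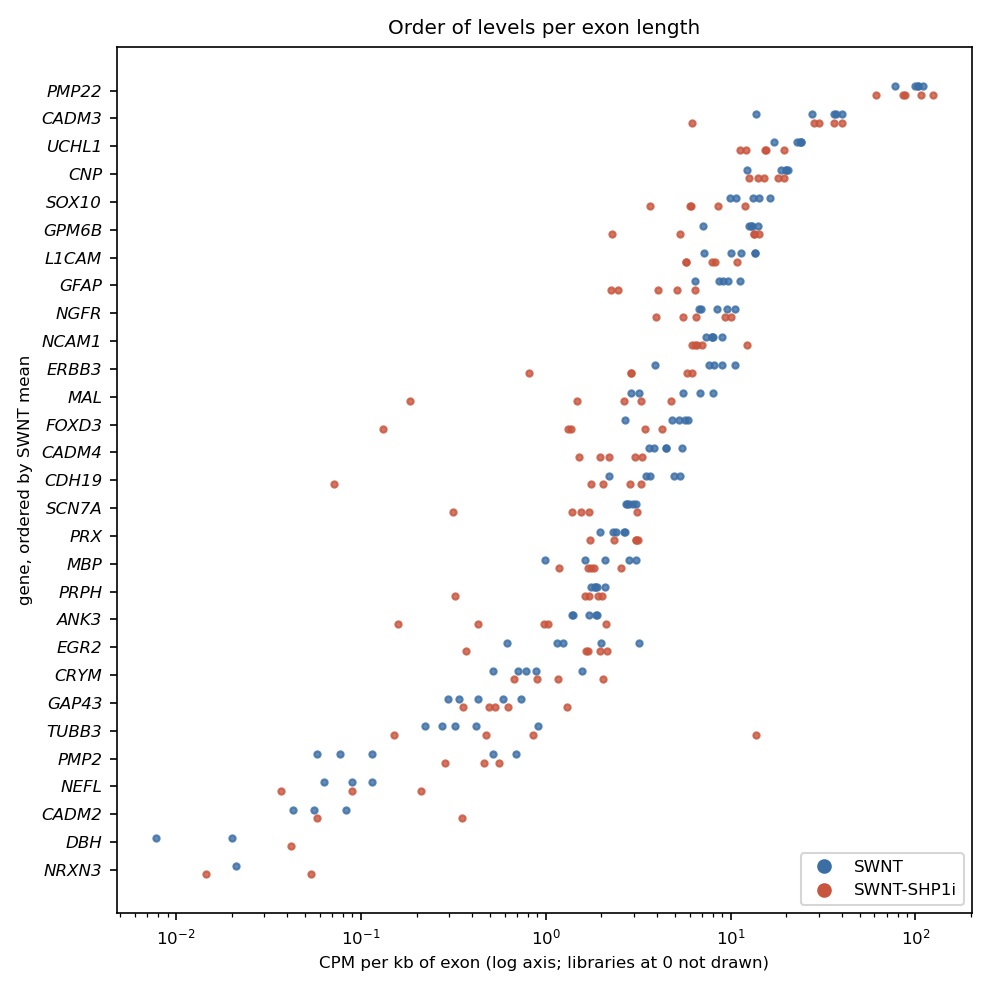
CPM per kb of exon (x axis, log scale) in each of the 10 libraries for 29 genes of the list, ordered by their SWNT mean, with SWNT above and SWNT-SHP1i below in each row. PMP22 is at the top, and CADM2, DBH and NRXN3 at the bottom are at 0 in at least 5 of 10 libraries; TH and SNAP25, at 0 in every SWNT library, are not drawn.

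The Schwann lineage genes were detected in every library. SOX10, the transcription factor that specifies and maintains Schwann cells (ENSSSCG00000039315, Sscrofa11.1 chromosome 5, 9891525 to 9901743), stood at 41.2, 47.7, 29.0, 31.1 and 38.4 CPM in SWNT replicates 1 to 5. In SWNT-SHP1i replicates 1, 2, 3, 5 and 6 it stood at 17.6, 34.8, 10.7, 24.9 and 17.8 CPM. Of the 5 SWNT-SHP1i libraries 4 lay below every SWNT library, and replicate 2 lay among them. Over the list, 7 of 26 genes had at least 4 SWNT-SHP1i libraries below all SWNT libraries, against 3.65% of all genes. The log2 fold change of SOX10 was -0.83 ± 0.29 (SE, 95% interval -1.46 to -0.19, edgeR adjusted p = 0.997). It was -0.53 without SWNT-SHP1i replicates 3 and 6 and -0.73 over the B9 animals.

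ERBB3 is the receptor through which Schwann cells respond to axonal neuregulin (ENSSSCG00000020725, chromosome 5, 21474475 to 21495038). It stood at 43.5, 48.1, 20.7, 41.0 and 56.5 CPM in SWNT and at 15.4, 33.2, 15.4, 31.2 and 4.33 CPM in SWNT-SHP1i. SWNT replicate 3 was the lowest of its group and lay among the SWNT-SHP1i libraries. On the log2 scale the difference was -1.07 ± 0.45 (95% interval -2.06 to -0.09, edgeR adjusted p = 0.997) and -0.65 without replicates 3 and 6.

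FOXD3, a transcription factor of neural crest and Schwann cell precursors, stood at 8.47, 8.20, 3.88, 6.93 and 7.63 CPM in SWNT and at 1.98, 6.16, 0.19, 4.95 and 1.91 CPM in SWNT-SHP1i. Its value in SWNT-SHP1i replicate 3 rests on 7 reads. FOXD3 had a log2 fold change of -1.21 ± 0.64 with a 95% interval that spans 0 (-2.60 to 0.18), and -0.68 without replicates 3 and 6. The groups overlapped through SWNT replicate 3.

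CDH19, a cadherin of Schwann cell precursors and glia, stood at 12.2, 17.1, 7.59, 12.7 and 18.5 CPM in SWNT and at 6.12, 9.95, 7.12, 11.4 and 0.25 CPM in SWNT-SHP1i, where replicate 6 had 6 reads. Its log2 fold change was -0.97 ± 0.62 (95% interval -2.32 to 0.39), or -0.57 without replicates 3 and 6. GPM6B, a membrane proteolipid that is not confined to glia, was at 30.7 to 60.4 CPM in SWNT (median 55.5). It was between 57.4 and 61.6 CPM in 3 SWNT-SHP1i libraries and at 23.0 and 9.86 CPM in replicates 3 and 6. Its fold change of -0.30 ± 0.42 became 0.20 without those libraries.

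**Figure D3:**
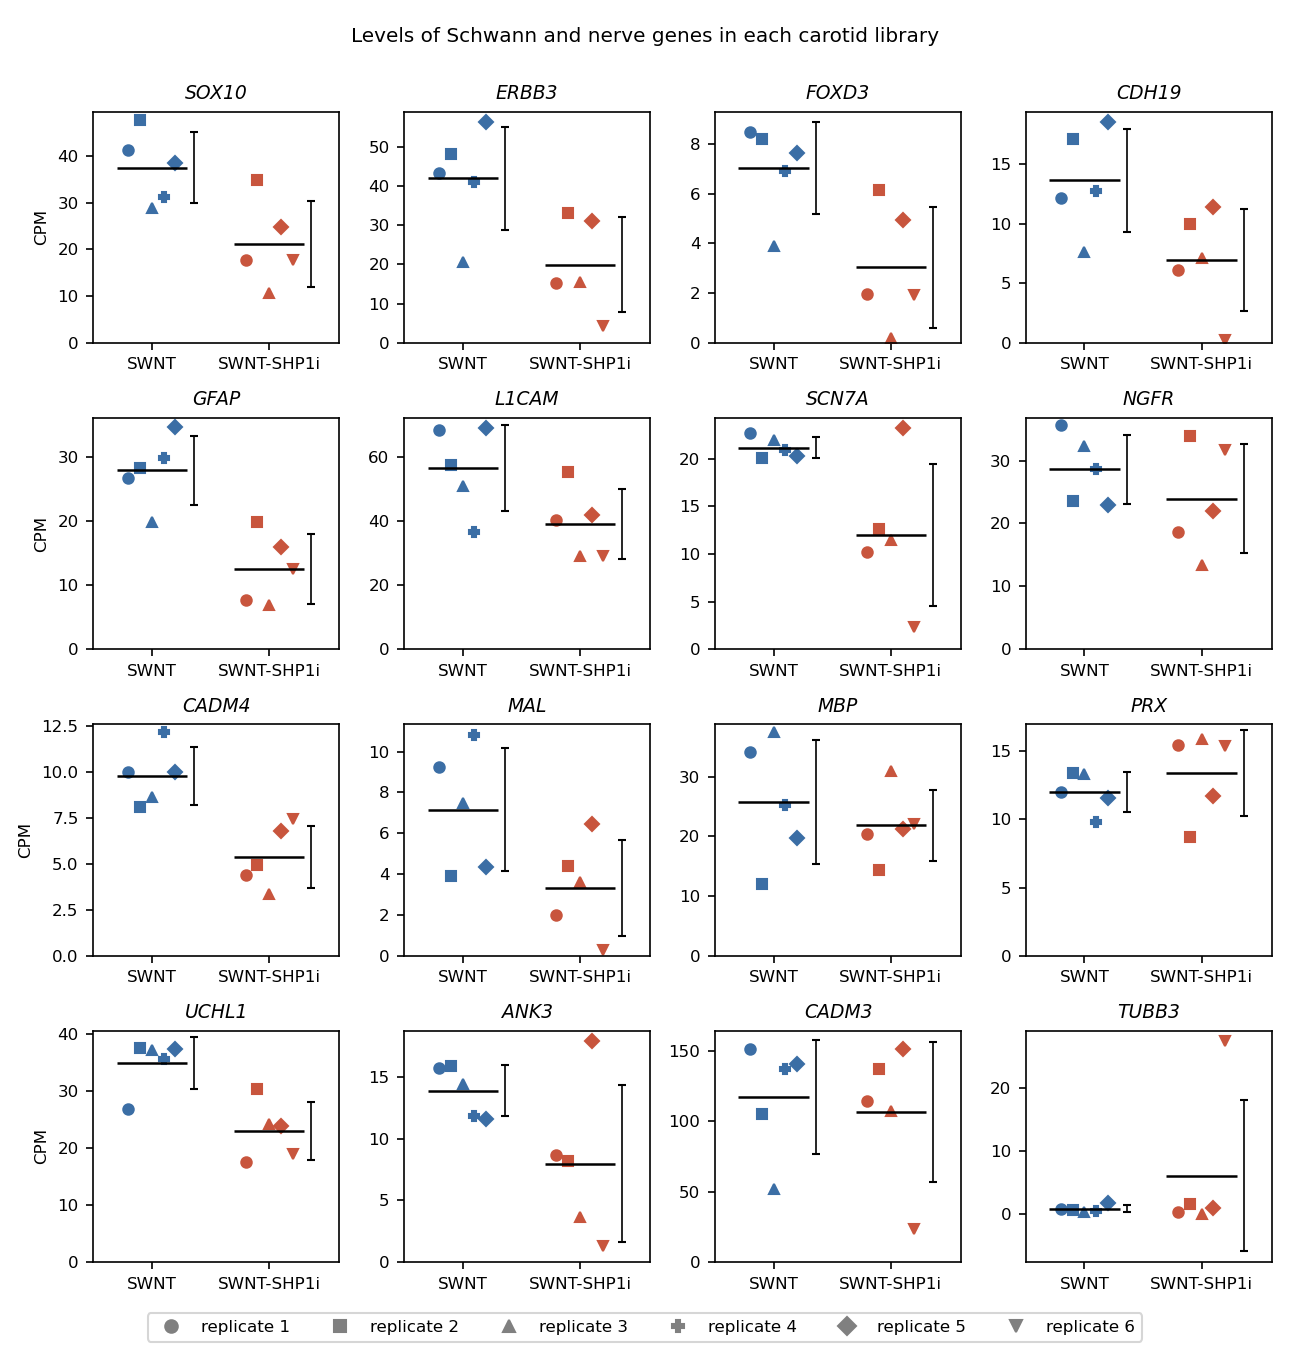
CPM (y axis) of 16 genes in each library, with SWNT in blue and SWNT-SHP1i in red, replicates by symbol, group means as horizontal lines and SD (n = 5) as bars. SOX10, GFAP, CADM4 and UCHL1 are lower in most SWNT-SHP1i libraries, and the groups overlap for MBP and PRX. For PRX, SWNT-SHP1i replicates 1, 3 and 6 lie above every SWNT library. TUBB3 is high in SWNT-SHP1i replicate 6 alone, at 27.4 CPM.

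Among the genes of non-myelinating Schwann cells, GFAP, the glial intermediate filament (ENSSSCG00000017343, chromosome 12, 18456263 to 18466592), had the smallest p of the list and the 12th smallest of all 15930 genes. It stood at 26.8, 28.2, 19.8, 29.9 and 34.7 CPM in SWNT and at 7.62, 19.8, 6.95, 15.9 and 12.4 CPM in SWNT-SHP1i. Every SWNT-SHP1i library lay below every SWNT library, which 2 of the 26 genes showed (GFAP and CADM4), against 0.276% of all genes. The reverse, every SWNT-SHP1i library above every SWNT library, was seen in 0 of the 26 and in 0.0816% of all genes. For GFAP that separation is only just met: SWNT replicate 3 was at 19.826 CPM and SWNT-SHP1i replicate 2 at 19.823 CPM. With RLE scaling in place of TMM these ends were 19.855 and 19.903 CPM, so that 1 library overlapped, as it did with no scaling (18.621 and 20.589). The log2 fold change was -1.15 ± 0.30 (95% interval -1.81 to -0.49, edgeR adjusted p = 0.997). It was -0.94 without replicates 3 and 6, -1.10 over the B9 animals and between -1.38 and -1.0 with any 1 library left out.

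L1CAM, an adhesion molecule of axons and non-myelinating Schwann cells, stood at 68.7, 57.7, 51.1, 36.7 and 69.3 CPM in SWNT and at 40.4, 55.3, 29.1, 41.8 and 29.2 CPM in SWNT-SHP1i, with overlap. Its log2 fold change was -0.53 ± 0.24 (95% interval -1.05 to -0.02, edgeR adjusted p = 0.997), and -0.30 without replicates 3 and 6. SCN7A, a sodium channel relative found in non-myelinating Schwann cells, was the steadiest gene of the list in SWNT, at 20.1 to 22.8 CPM. In SWNT-SHP1i it was at 10.2, 12.7, 11.5, 23.3 and 2.33 CPM, so that 4 libraries lay below the SWNT range and replicate 5 above it. The log2 fold change of SCN7A was -0.82 ± 0.42 (95% interval -1.74 to 0.10), and -0.46 without replicates 3 and 6.

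The other genes of this group differed less. NGFR, the low-affinity neurotrophin receptor, was at 22.9 to 35.7 CPM in SWNT (median 28.6) and at 13.4 to 33.9 CPM in SWNT-SHP1i (median 21.9), a log2 fold change of -0.26 ± 0.27 that was -0.06 over the B9 animals and -0.11 without SWNT-SHP1i replicate 3. The adhesion molecule NCAM1 was at 71.6 to 87.1 CPM in SWNT. In SWNT-SHP1i it was at 60.3 to 68.5 CPM in 4 libraries, all below the SWNT range, and at 119.8 CPM in replicate 1. Its fold change of -0.06 ± 0.21 therefore averages libraries on both sides of the SWNT range, and it was -0.31 without SWNT-SHP1i replicate 1, 0.07 without replicates 3 and 6 and -0.02 over the B9 animals. CADM2, a brain and nerve adhesion molecule, had 45 reads in all 10 libraries together, 25 of them in SWNT-SHP1i replicate 5, and was not tested.

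Among the myelinating genes, CADM4, the adhesion molecule by which the Schwann cell holds the axon along the internode (ENSSSCG00000003061, chromosome 6, 50462450 to 50478383), stood at 10.01, 8.08, 8.62, 12.2 and 9.998 CPM in SWNT. In SWNT-SHP1i it stood at 4.40, 4.94, 3.37, 6.78 and 7.45 CPM. The groups did not overlap, and they did not overlap with RLE scaling either (7.97 against 7.85 CPM at the ends). The log2 fold change was -0.86 ± 0.28 (95% interval -1.47 to -0.26, edgeR adjusted p = 0.997). It was -0.86 without replicates 3 and 6, and between -1.0 and -0.73 with any 1 library left out. MAL, a lipid raft protein of myelin that lymphocytes and epithelia also make, was at 3.89 to 10.8 CPM in SWNT (median 7.50) and at 1.98, 4.40, 3.58, 6.45 and 0.25 CPM in SWNT-SHP1i. Its log2 fold change was -1.10 ± 0.62 (95% interval -2.44 to 0.24).

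The structural myelin genes overlapped between the groups. MBP stood at 34.3, 12.0, 37.6, 25.4 and 19.8 CPM in SWNT and at 20.5, 14.4, 31.1, 21.3 and 22.2 CPM in SWNT-SHP1i, a log2 fold change of -0.24 ± 0.31 (95% interval -0.91 to 0.43). It was -0.46 without SWNT-SHP1i replicates 3 and 6 and -0.07 without SWNT replicate 3. Here the replicates 3, which were low in SOX10, were the highest of their groups. PRX stood at 12.0, 13.4, 13.3, 9.84 and 11.6 CPM in SWNT and at 15.4, 8.68, 15.9, 11.7 and 15.4 CPM in SWNT-SHP1i. SWNT-SHP1i replicates 1, 3 and 6, the 3 libraries lowest in SOX10, were above every SWNT library for PRX. For PRX the log2 fold change was 0.16 ± 0.23 (95% interval -0.33 to 0.65), and -0.006 without replicates 3 and 6. Endothelial cells can also make periaxin, and leukocytes make transcripts of the MBP gene. The share of such cells in these values was not tested.

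PMP22 was at 163.9 to 231.1 CPM in SWNT and at 128.4 to 263.2 CPM in SWNT-SHP1i (log2 fold change -0.09 ± 0.21, 95% interval -0.54 to 0.37). It was 0.014 without SWNT-SHP1i replicates 3 and 6 and -0.21 over the B9 animals. CNP was at 28.9 to 47.8 and 29.6 to 45.5 CPM (-0.21 ± 0.20, 95% interval -0.63 to 0.22, and -0.37 over the B9 animals). CNP shares 884 exonic bases with DNAJC7 on the opposite strand, and since no source used here gives the strand setting of the counting, reads of these genes cannot be told apart there. EGR2, the transcription factor that switches on myelin genes and that macrophages also express, was at 1.74 to 8.98 CPM in SWNT and at 1.04 to 6.03 CPM in SWNT-SHP1i (-0.07 ± 0.52). Its fold change was -0.30 without replicates 3 and 6 and 0.18 over the B9 animals. PMP2, the fatty-acid binding protein of peripheral myelin, had 169 reads in all and was at 0 in SWNT-SHP1i replicates 3 and 6, so its fold change of -0.15 ± 1.21 carries little information (0.57 without those libraries and -0.09 over the B9 animals).

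**Figure D4:**
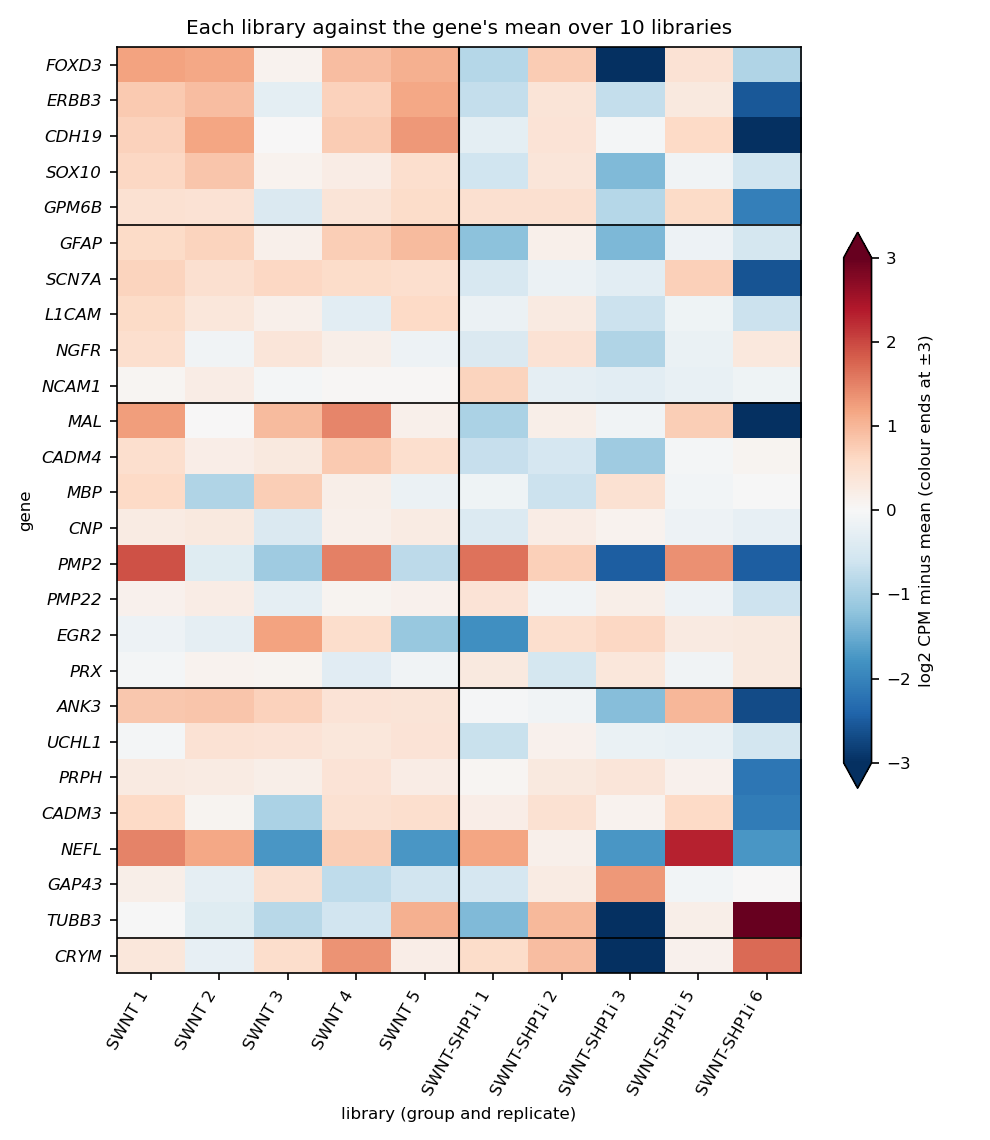
Log2 CPM of each tested gene (rows, grouped by role as in the plot of fold changes) minus its mean over the 10 libraries (columns), from blue (below) to red (above), with the colour ends at ±3. SOX10, ERBB3, FOXD3 and GFAP are blue in SWNT-SHP1i replicates 1, 3 and 6, GPM6B in replicates 3 and 6, and CDH19 mainly in replicate 6, whereas MBP and PRX are not blue in replicate 3.

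The genes placed as axonal or neuronal split into those with steady reads and those close to none. Which cells of the wall gave these reads, those of UCHL1, ANK3 and CADM3 among them, was not tested. UCHL1 (ENSSSCG00000022945, chromosome 8, 32353246 to 32367332) stood at 26.9, 37.6, 37.2, 35.6 and 37.4 CPM in SWNT and at 17.5, 30.3, 24.2, 23.8 and 19.0 CPM in SWNT-SHP1i. Only SWNT replicate 1 lay below the highest SWNT-SHP1i library. For UCHL1 the log2 fold change was -0.61 ± 0.20 (95% interval -1.04 to -0.17, edgeR adjusted p = 0.997), -0.54 without replicates 3 and 6 and -0.60 over the B9 animals. ANK3, the ankyrin that anchors channels at the node and the axon initial segment, was at 11.6 to 15.9 CPM in SWNT and at 8.64, 8.21, 3.64, 17.9 and 1.33 CPM in SWNT-SHP1i. Its log2 fold change was -0.80 ± 0.51 (95% interval -1.91 to 0.30), and -0.26 without replicates 3 and 6.

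CADM3, the axonal partner of CADM4, showed no such difference. It stood at 151.8, 105.0, 51.9, 137.1 and 140.9 CPM in SWNT and at 114.6, 137.0, 107.4, 151.3 and 23.4 CPM in SWNT-SHP1i, and its fold change was -0.14 ± 0.42 (95% interval -1.05 to 0.78). Without replicates 3 and 6 it was 0.20, and over the B9 animals -0.32. The lowest value in each group was that of SWNT replicate 3 and SWNT-SHP1i replicate 6. PRPH, the intermediate filament peripherin of peripheral neurons, was steady at 3.17 to 3.76 CPM in SWNT and at 2.95 to 3.64 CPM in 4 SWNT-SHP1i libraries, with 0.582 CPM (14 reads) in replicate 6. Its fold change of -0.31 ± 0.45 was -0.05 without replicate 6 and -0.10 without replicates 3 and 6.

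GAP43, a growth cone protein of axons that Schwann cells can make too, was at 0.653 to 1.61 CPM in SWNT and at 0.788 to 2.88 CPM in SWNT-SHP1i. The highest value was in SWNT-SHP1i replicate 3, and the fold change of 0.47 ± 0.56 was 0.064 without that library, 0.045 without replicates 3 and 6 and 0.27 over the B9 animals. TUBB3, the neuronal beta tubulin, had the largest positive fold change (2.81 ± 1.34, 95% interval -0.11 to 5.72). It came from SWNT-SHP1i replicate 6, with 659 reads (27.4 CPM), where no other library exceeded 1.83 CPM, and leaving that library out gave -0.21 (0.22 with replicate 3 left out too).

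Not every axonal gene had enough reads to be tested. TH, the first enzyme of noradrenaline synthesis, had 0 reads in all 10 libraries, where 3 reads, the upper limit that a count of 0 allows, come to 0.067 to 0.125 CPM. DBH, the enzyme that makes noradrenaline from dopamine, had 8 reads in all, the synaptic adhesion gene NRXN3 had 9, and the synaptic vesicle fusion gene SNAP25 had 16, all in SWNT-SHP1i replicate 6. NEFL, the light neurofilament subunit, had 90 reads and was at 0 in 4 libraries (SWNT replicates 3 and 5, SWNT-SHP1i replicates 3 and 6). Its fold change was 0.34 ± 1.41, and 1.06 without replicates 3 and 6. These limits cover counting error only. Other transcripts of noradrenergic neurons were read, chosen here after their values were seen: the noradrenaline transporter SLC6A2 was at 0.938 to 4.82 CPM in SWNT and 0.978 to 3.79 CPM in SWNT-SHP1i, and the vesicular monoamine transporter SLC18A2 at 3.95 to 7.88 and 2.25 to 7.04 CPM. CRYM, the thyroid hormone binding mu-crystallin, was at 2.0 to 6.10 CPM in SWNT and at 0, 2.61, 3.51, 4.55 and 7.90 CPM in SWNT-SHP1i replicates 3, 5, 1, 2 and 6, a log2 fold change of 0.10 ± 0.86 that was 0.039 without replicates 3 and 6 and 0.41 over the B9 animals.

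The Schwann genes did not all vary together across animals. On log2 CPM over the 10 libraries, SOX10 was compared with each of the other 25 tested genes (permutation tests, 100000 permutations, two-sided, Benjamini-Hochberg over 25). Genes outside the list were not compared with SOX10, so the share of all genes that follow it as closely is not known. Of the 25, FOXD3 followed SOX10 most closely, with Pearson r = 0.942 (p = 8e-05, adjusted p = 0.0020) and Spearman rho = 0.952 (p = 0.00017, adjusted p = 0.00425). GFAP had r = 0.922 (p = 0.00018, adjusted p = 0.00225) and rho = 0.842 (p = 0.00373, adjusted p = 0.0233). L1CAM had r = 0.856 (p = 0.00129, adjusted p = 0.0107) and rho = 0.855 (p = 0.00293, adjusted p = 0.0233). Without the 2 libraries farthest from the median of SOX10 (SWNT-SHP1i replicates 1 and 3), r was 0.923, 0.843 and 0.857 for these 3 genes, and over the 8 B9 animals it was 0.954, 0.884 and 0.824. ERBB3 and CDH19 passed by rank (rho = 0.891, adjusted p = 0.0145, and rho = 0.818, adjusted p = 0.0284, permutation test) but not by Pearson r (0.743 and 0.521), where SWNT-SHP1i replicate 6 lies far below the others. CNP also passed by rank (rho = 0.794, adjusted p = 0.0361, permutation test) but not by Pearson r (0.501). Its lowest library was SWNT replicate 3.

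MBP and PRX went the other way from SOX10 without passing. MBP had r = -0.352 (permutation p = 0.319, adjusted p = 0.414) and rho = -0.333 (adjusted p = 0.486). PRX had r = -0.627 (permutation p = 0.0512, adjusted p = 0.142) and rho = -0.564 (adjusted p = 0.244). The libraries share the treatment groups and their scaling, both of which enter these correlations, and each group alone has 5 libraries, too few for a correlation.

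**Figure D5:**
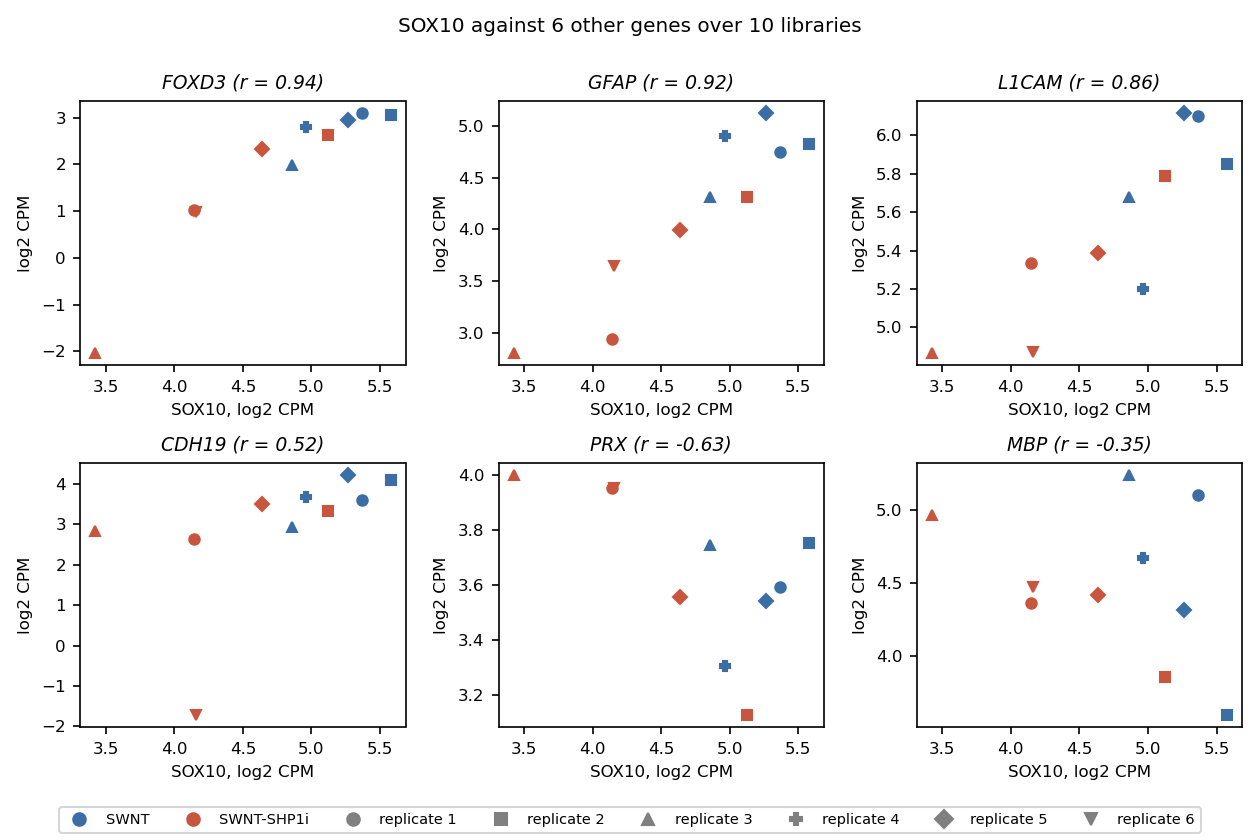
Log2 CPM of 6 genes (y axes) against that of SOX10 (x axes) in the 10 libraries, with SWNT in blue, SWNT-SHP1i in red and replicates by symbol. FOXD3, GFAP and L1CAM rise with SOX10, CDH19 does so apart from SWNT-SHP1i replicate 6, and PRX and MBP do not.

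Other genes of the same biology were read from lists chosen by function, and no gene in them passed the test over all genes. Of 27 other myelin and node genes 21 were tested, 16 with negative fold changes (median -0.35), and 2 of them were lower at an unadjusted p under 0.05: LGI4, a secreted signal for Schwann cell myelination, at 62.7 to 91.8 CPM in SWNT and 45.6 to 71.1 CPM in SWNT-SHP1i (-0.49 ± 0.19), and ADAM23, a receptor of the LGI family, at 12.8 to 18.8 and 3.58 to 14.5 CPM (-0.84 ± 0.34). CNTN2, an adhesion molecule beside the node, came next (-1.04 ± 0.49).

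Of 29 other Schwann regulators and signals 23 were tested and 18 were negative (median -0.27), with 0 below an unadjusted p of 0.05. SOX8, a relative of SOX10, had the smallest p, with a positive fold change (0.78 ± 0.39), and was at 64.8 and 56.1 CPM in SWNT-SHP1i replicates 1 and 3, while its level in SWNT was 12.6 to 26.3 CPM. JUN, which drives the repair state of Schwann cells and is induced in many cells, came next (-0.49 ± 0.32) with the laminin receptor subunit DAG1 (-0.36 ± 0.23). ERBB2, the co-receptor of ERBB3 that many cell types express, was at 37.0 to 58.9 CPM in SWNT and at 34.5 to 56.3 CPM in SWNT-SHP1i (-0.14 ± 0.19).

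Of 26 neurotrophic factors and receptors 23 were tested and 19 were negative (median -0.17). CNTFR, the ciliary neurotrophic factor receptor, had a fold change of 0.86 ± 0.36 and the guidance cue SEMA3C one of 0.90 ± 0.44. Of 58 other axon, synapse and transmitter genes 31 were tested, 18 of them negative and 13 positive (median -0.17). NSG1, an endosomal protein of neurons, had a fold change of 1.51 ± 0.56, whereas HAND2, a transcription factor of sympathetic neurons that vascular smooth muscle also expresses, was at 38.0 to 76.8 and 13.6 to 49.1 CPM (-0.92 ± 0.32).

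Markers of other cells differed in level between the groups, with none called by the test. All 15 contractile smooth muscle markers had negative fold changes (median -0.57), with a summed level of 53070 to 77760 CPM in SWNT and 25010 to 63640 CPM in SWNT-SHP1i. All 15 macrophage markers were positive (median 1.47), with sums of 420 to 1286 and 442 to 2481 CPM. Of 15 fibroblast markers 14 were positive (median 0.47, 42060 to 85630 and 71900 to 107000 CPM). None of these markers was at 0 in every library, and their part in the Schwann gene values was not tested. Of 12 endothelial markers 8 were positive (median 0.21, 598 to 2006 and 776 to 2101 CPM), and of 10 adipocyte markers 4 (median -0.24, 127 to 646 and 181 to 540 CPM). Skeletal muscle markers, of which 2 were tested, summed to 8.08 to 24.0 CPM in SWNT and 8.30 to 169 CPM in SWNT-SHP1i. Most of that sum was CKM, the muscle creatine kinase, at 6.92 to 23.95 and 8.06 to 165.8 CPM, and no other marker of the list exceeded 6.24 CPM in any library. Melanocytes also use SOX10. The 8 melanocyte markers together summed to 18.0 to 33.3 CPM in SWNT and 25.8 to 34.6 CPM in SWNT-SHP1i. MITF, which macrophages and other cells also express, was at 9.56 to 26.8 CPM, and the pigment cell transporter SLC45A2 at 7.43 to 11.8 CPM in SWNT and 5.59 to 10.2 CPM in SWNT-SHP1i. The other 6, among them TYR, DCT, TYRP1, PMEL and MLANA, were at or under 1.47 CPM in every library, and the part of melanocytes in the SOX10 values was not tested.

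Of the 24 tested genes that had a single lowest library, SWNT-SHP1i replicates 3 and 6 were the lowest for 9 each (37.5%), where over 15112 genes they were the lowest for 20.7% and 32.1%. The remaining SWNT-SHP1i libraries, replicates 1, 2 and 5, were the lowest for 2, 1 and 0 of the 24 (8.33%, 4.17% and 0.0%). Over the 15112 genes they were the lowest for 4.94%, 3.10% and 10.9%.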

How the data were processed

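The authors deposited whole read counts per gene in 1 table, without normalization. The submitters' processing notes list the build Sscrofa11.1 and, without versions, Trim Galore, STAR and DESeq2. For the counting program, strand setting and annotation release: not given in the sources used here. Coordinates and summed exon lengths are as deposited, per the file headers.

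Replicate numbers follow accession order and pair no animals. Nothing beyond the animal numbers describes the samples as independent, so p-values measure the spread between these animals. The closest pair of libraries had a median chi-square per gene of 6.25, so none was taken as a repeat of another. Gene spans matched by position had to share 0.5 or more of their joint length, and NEFM reached 0.446.

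Counts were filtered with filterByExpr (minimum count 10) and scaled by TMM. Groups were compared by quasi-likelihood in edgeR 4.0.16 (R 4.3.3, robust), without covariates, after the code was tested on simulated data. The SE is the log2 fold change over the square root of F. Log2 CPM has a prior count of 2. Members, lists and rules were chosen with earlier results of these data known; named are all listed genes, the 3 smallest p of each related list and markers, some of which are not reported here. Alternatives were RLE scaling, no filter, a filter of 1 CPM, DESeq2 1.42.0 and limma-voom with quality weights (limma 3.58.1, called limma-voom below). Further alternatives were the animal number range as a term and libraries left out. The fit on B9 animals alone was added after seeing the data.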

Additional observations from a re-analysis of the deposited data

Results flagged for a closer look

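In 11 of 52 checks (26 genes in 2 groups of 5), the highest or lowest library lay further from the rest of its group than Dixon's 95% critical value allows; chance flags about 1 in 20. In log2 CPM, SWNT replicate 3 was the lowest of SWNT for FOXD3 (1.98 against 2.80 to 3.09), GPM6B (4.94 against 5.76 to 5.92), PMP22 (7.36 against 7.72 to 7.85) and CNP (4.86 against 5.46 to 5.58), and SWNT replicate 1 was the lowest for UCHL1 (4.75 against 5.16 to 5.24). SWNT-SHP1i replicate 6 was the lowest of its group for CDH19 (-1.72 against 2.63 to 3.51), PRPH (-0.65 against 1.59 to 1.89) and CADM3 (4.55 against 6.75 to 7.24). SWNT-SHP1i replicate 1 was the lowest for EGR2 (0.13 against 2.23 to 2.60) and the highest for NCAM1 (6.91 against 5.92 to 6.10), and SWNT-SHP1i replicate 3 was the lowest for CRYM (-4.21 against 1.41 to 2.99).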

How the results depend on the processing

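No paired analysis was possible because the labels give no replicate numbers that groups share. No listed gene passed an adjusted p of 0.05 under any alternative run, or 0.1 in the fit reported. Lower at an unadjusted p under 0.05 were 5 listed genes with DESeq2, 9 with limma-voom and 4 to 8 with 1 library left out, against 6; higher were 1 over the B9 animals and 0 to 1 with 1 library left out, against 0. Without SWNT-SHP1i replicates 3 and 6, the sign turned for GPM6B (0.20), PMP22 (0.014), PRX (-0.006), PMP2 (0.57), NCAM1 (0.072) and CADM3 (0.20). With limma-voom it turned for PRX (-0.066), PMP2 (0.69), TUBB3 (-0.16) and CADM3 (0.009), with the animal number range as a term for EGR2 (0.033) and CRYM (-0.30), and over the B9 animals, a fit chosen after seeing the data, for EGR2 (0.18). With 1 library left out the fold change ran from -0.221 to 0.034 for PMP22, from -0.62 to 0.45 for PMP2, from -0.28 to 0.32 for EGR2, from -0.31 to 0.005 for NCAM1, from -0.71 to 0.83 for NEFL, from -0.21 to 3.27 for TUBB3, from -0.33 to 0.12 for CADM3 and from -0.38 to 0.41 for CRYM. The cause was not tested. The other tested genes kept their sign under every alternative run. Depth limits PMP2, NEFL and the 5 untested genes, which have at most 169 reads in all.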

Other observations

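Nerve bundles also hold perineurial and endoneurial cells, the sheath and the fibroblasts of the nerve. Of 15 markers of these cells 14 were tested, 8 with negative and 6 with positive fold changes (median -0.04). The difference from the Schwann lineage genes was not tested. WIF1, a secreted Wnt inhibitor and by far the most abundant marker in this list, was picked out after its values were seen. It was at 861 to 1267 CPM in SWNT and at 133.6 to 1037 CPM in SWNT-SHP1i (log2 fold change -1.13 ± 0.41, edgeR adjusted p = 0.997). Which cells of the wall gave the WIF1 reads was not tested. Carotid body tissue beside the artery would bring chemoreceptor cells. The 12 chemoreceptor and chromaffin markers summed to 96.4 to 169 CPM in SWNT and 82.9 to 162 CPM in SWNT-SHP1i. Of the 7 tested, 4 had negative and 3 positive fold changes. The most abundant were COX4I2, at 37.9 to 63.6 CPM in SWNT and 30.6 to 101.5 CPM in SWNT-SHP1i, and HAND2, which smooth muscle also expresses. SLC18A1, a vesicular monoamine transporter, had a log2 fold change of 1.17 ± 0.51 (edgeR adjusted p = 0.997). The part of such cells in the nerve gene values was not tested.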
